A study of Mus musculus with 8 samples.

Results

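The 9 genes described here restrain the mTORC1 growth pathway, apart from the metabolic gene Tigar. Several of the 9 are known targets of the stress factor p53. They are the sestrins Sesn1, Sesn2 and Sesn3, the stress protein gene Ddit4 (REDD1), the TSC complex genes Tsc1 and Tsc2, the AMPK subunit gene Prkab1, the mTOR-binding inhibitor gene Deptor and the fructose bisphosphatase gene Tigar. They were taken by symbol from a table of 52778 rows, and each of the 9 symbols stood on 1 row. All 9 passed the filter of a mean of at least 1 TPM (reads divided by transcript length and scaled to a total of 1000000 per library) that left 15541 rows to be tested. RNA came from ventricular heart tissue of mouse embryos at embryonic day 11.5, with 4 libraries per group described as biological replicates. The conditional knockout (cKO) embryos carried Rps19bp1 fl/fl with Xmlc2-Cre +/−, so floxed Rps19bp1 is removed in cardiomyocytes only and the other cells of the ventricle keep it. The other 4 embryos are labelled only as control, and the alleles they carried are not given in the sources used here. All 8 libraries share the genotype entry C57BL/6 WT, which goes against the knockout named in their titles, and 1 batch number. No drug or other agent was given.

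mTORC1 is a kinase complex on the lysosome that promotes protein synthesis and cell growth when amino acids, energy and growth factor signals are sufficient. Sestrins bind the GATOR2 complex and lower the amino acid signal that reaches mTORC1 through the Rag GTPases. The TSC complex switches off the small GTPase Rheb, the direct activator of mTORC1, and is itself promoted by REDD1 and by the energy sensor AMPK. The product of Rps19bp1 is found in the nucleolus as a partner of the ribosomal protein RPS19, and disturbed ribosome production is a known trigger of p53. In p53 biology Sesn1, Sesn2, Ddit4, Prkab1 and Tigar are described as genes through which p53 slows growth and reshapes metabolism.

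Facts about the whole series that bear on these genes are few. The targeted gene Rps19bp1 (chr15:80260614-80264306, GRCm38) stood between 11.8 and 19.2 TPM in cKO and between 34.7 and 44.2 TPM in control (log2 change -1.37, limma adjusted p = 0.000508). The extraction text of the labels speaks of cortical neurons, but 14 cardiomyocyte markers summed to between 51532 and 57646 TPM in every library, and 10 of 12 neuronal markers stayed under 1 TPM throughout, 3 of them at 0. Of all tested rows, 994 had a limma adjusted p under 0.05, 336 higher and 658 lower in cKO. After quantile normalization the split was 383 higher and 380 lower.

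Of the 9 genes, 1 passed the threshold of limma's test, against 6.40% of all tested rows, and that gene was Sesn2. It was higher in cKO, as were 2.16% of all tested rows by this test, and 0 of the 9 were lower, against 4.23% of all tested rows. The other 8 did not pass, and 4 of the 9 had an unadjusted p under 0.05, against 23.7% of all tested rows. The groups did not overlap in 3 of the 9 (Sesn2, Sesn3 and Ddit4), against 15.6% of all tested rows. All 3 were higher in cKO (5.33% of all tested rows) and 0 lower (10.3%). The median log2 change of the 9 was 0.08, beside -0.02 over all tested rows. In bulk tissue, a change in the number of cells that express a gene and a change in its RNA per cell cannot be told apart.

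**Figure D1:**
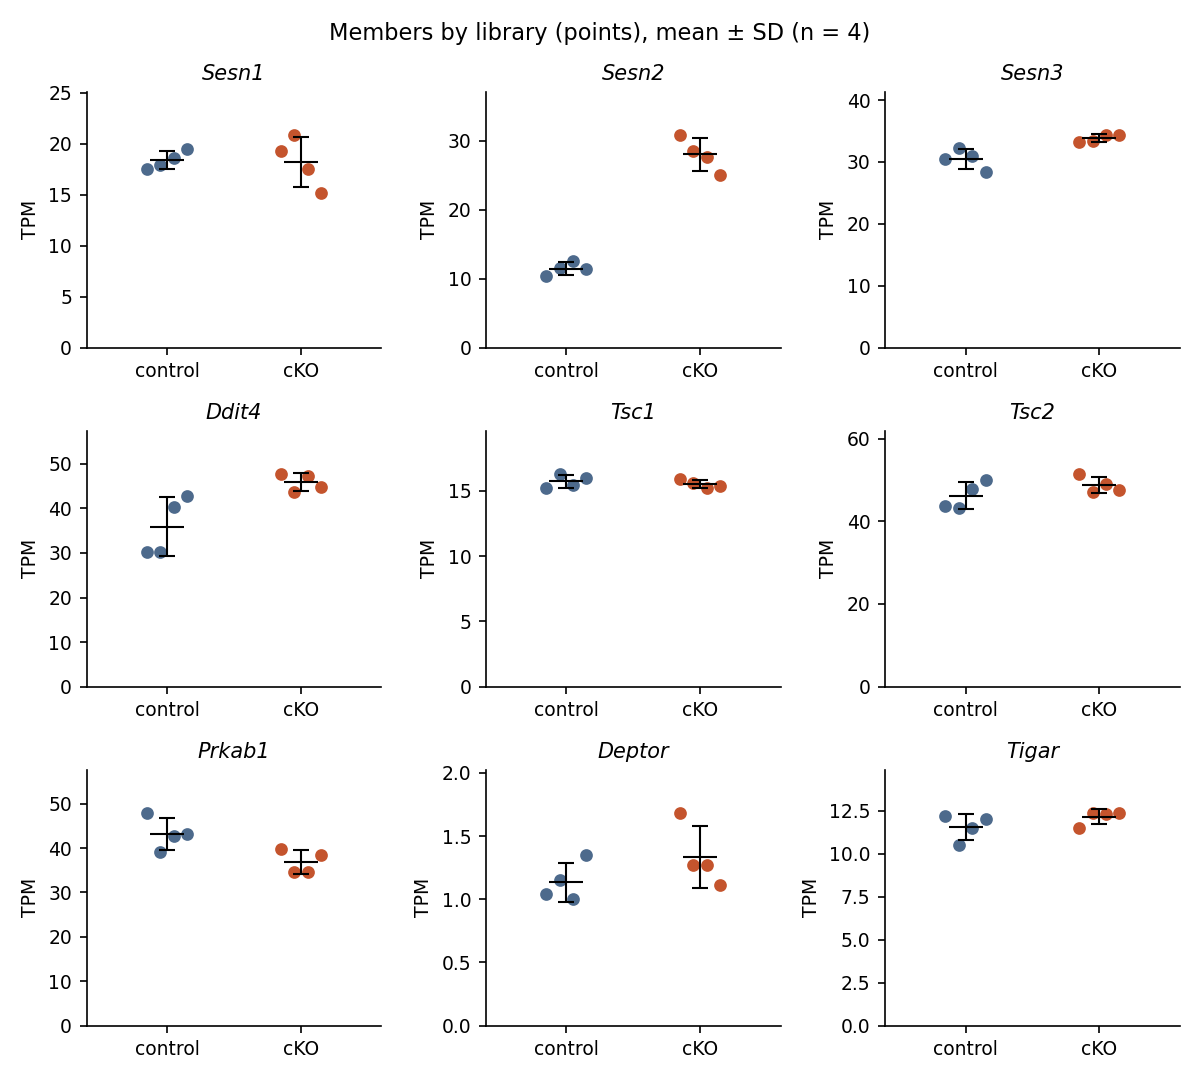
TPM of each of the 9 genes in the 4 control and 4 cKO libraries (points, in the order of replicates 1 to 4), with the mean and SD as a bar, each panel on its own axis from 0. Sesn2 lies between 25.0 and 30.9 TPM in cKO and between 10.4 and 12.6 TPM in control, while the 2 groups overlap in 6 of the panels.

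As TPM is a value per transcript length, levels can be set in order between genes. In control ventricle the order by mean TPM was Tsc2, Prkab1, Ddit4, Sesn3, Sesn1, Tsc1, Tigar, Sesn2 and Deptor, and the median gave the same order. Tsc2 (46.2 ± 3.23 TPM, SD, n = 4), Prkab1 (43.2 ± 3.65) and Ddit4 (35.9 ± 6.67) each overlapped the next gene in the order, and Ddit4 also overlapped Sesn3 (30.5 ± 1.62). Sesn3, Sesn1 (18.4 ± 0.877) and Tsc1 (15.7 ± 0.489) were each separate from the gene below. Tigar (11.5 ± 0.753) and Sesn2 (11.5 ± 0.934) overlapped, and Deptor was the least abundant at 1.13 ± 0.156 TPM. In cKO Sesn2 moved from place 8 to place 5, above Sesn1, Tsc1 and Tigar.

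The sestrins came first in the comparison, since they act upstream of the Rag GTPases. Sesn2 (chr4:132492804-132510456, minus strand) encodes the sestrin best known as a leucine sensor and as a gene induced by stress. Control libraries 1 to 4 held 10.4, 11.5, 12.6 and 11.3 TPM of Sesn2. The cKO libraries 1 to 4 held 30.9, 28.6, 27.6 and 25.0 TPM. Every cKO library lay above every control library, and the lowest cKO value was well clear of the highest control value. The mean rose to 28.0 ± 2.44 TPM from 11.5 ± 0.934 TPM (SD, n = 4), a ratio of 2.44. The log2 change was 1.22 (SE 0.0775, 95% interval 1.05 to 1.39, limma adjusted p = 4.34e-05), the place 21 among 15541 rows ordered from the highest change down. The exact two-sided permutation p was 0.0286, the smallest that 4 against 4 libraries allow. The call held under all 18 alternatives, with a log2 change between 1.00 and 1.28.

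Sesn1 (chr10:41810574-41908436, plus strand), the founding p53-inducible sestrin, did not pass the test. Control libraries 1 to 4 held 17.5, 17.9, 18.6 and 19.5 TPM. The cKO libraries held 19.3, 20.9, 17.5 and 15.2 TPM, so the highest and the lowest of the 8 values were both in cKO. The log2 change was -0.02 (95% interval -0.22 to 0.18, limma adjusted p = 0.922), which as a fold spans 0.860 to 1.13 and leaves out the size seen for Sesn2. RefSeq lists 2 start sites for Sesn1, and the single row of the table does not separate their transcripts. The sign of this small value was positive under 3 scalings and without control replicate 4 (0.00771), and it was 0.060 without cKO replicate 4.

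Sesn3 (chr9:14276301-14326134, plus strand), the sestrin tied to FoxO factors, was the most abundant of the family in both groups. Control libraries held 30.4, 32.3, 30.9 and 28.4 TPM, and cKO libraries held 33.2, 33.4, 34.4 and 34.4 TPM. The groups did not overlap (exact two-sided permutation p = 0.0286), yet the gap was small. The log2 change was 0.15 (95% interval 0.03 to 0.26) and did not pass limma's test over all rows (adjusted p = 0.115).

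Summed over the family, sestrin transcripts stood at 60.3 ± 1.89 TPM in control and 80.1 ± 4.08 TPM in cKO (SD, n = 4), with no overlap between groups. Sesn2 made up 19.0% ± 1.07 of the sum in control and 34.9% ± 1.49 in cKO (SD, n = 4), while Sesn1 stood at 30.5% and 22.7% and Sesn3 at 50.5% and 42.4%. The log2 ratio of Sesn2 to Sesn1 within a library, which a change of library scale cannot move, was -0.68 ± 0.10 in control and 0.63 ± 0.12 in cKO (SD, n = 4). The ratio therefore turned from below to above parity in every cKO library. Against Sesn3 the log2 ratio was -1.41 ± 0.13 and -0.28 ± 0.15 (SD, n = 4), so Sesn3 stayed the more abundant. For this sum and both ratios the exact two-sided permutation p was 0.0286, and 0.0762 after Benjamini-Hochberg adjustment over the 8 ratios and sums tested. Sesn1 to Sesn3 gave log2 ratios of -0.73 ± 0.14 in control and -0.90 ± 0.22 in cKO (SD, n = 4), which overlapped (exact permutation p = 0.257).

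**Figure D2:**
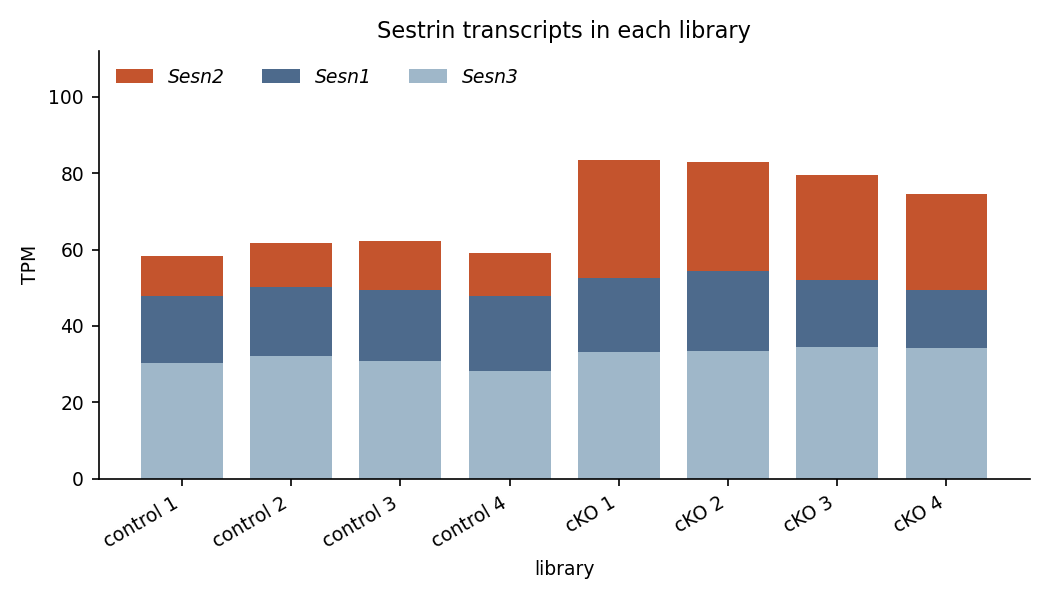
Stacked TPM of Sesn3, Sesn1 and Sesn2 in each of the 8 libraries, with axis from 0. The total lies between 58.2 and 62.1 TPM in control and between 74.5 and 83.4 TPM in cKO, and the Sesn2 part is the one that is visibly taller in cKO.

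The REDD proteins act on the TSC complex. Ddit4 (chr10:59949675-59951770, minus strand) encodes REDD1, which is induced by hypoxia, glucocorticoids, ATF4 and p53. Control libraries 1 to 4 held 30.1, 30.3, 40.4 and 42.8 TPM, a coefficient of variation of 18.6%. The cKO libraries held 47.8, 43.6, 47.3 and 44.7 TPM, all above the highest control value but close to control libraries 3 and 4. The log2 change was 0.36 (SE 0.111, 95% interval 0.12 to 0.61) and did not pass (limma adjusted p = 0.0829; exact two-sided permutation p = 0.0286). Without control replicate 4 it passed, with a log2 change of 0.45 (limma adjusted p = 0.043), and over all 18 alternatives the adjusted p ranged from 0.043 to 0.228.

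Its paralog Ddit4l (chr3:137623672-137628332, plus strand), which encodes REDD2 and is not among the 9, also rose. Control libraries held 3.13, 2.69, 2.77 and 2.61 TPM, and cKO libraries held 7.70, 7.26, 7.63 and 6.47 TPM. Both groups were tight and far apart. The mean rose to 7.27 ± 0.562 TPM from 2.80 ± 0.232 TPM (SD, n = 4), a ratio of 2.60, above the 2.44 of Sesn2. The fitted log2 change was 1.12 (SE 0.0835, 95% interval 0.93 to 1.31, limma adjusted p = 0.0001), the place 24 of all tested rows. The call held under all 18 alternatives, and a pseudocount of 5, which weighs on a gene of so low a level, moved the log2 change most, to 0.65. With a pseudocount of 0.1 it was 1.345, beside 1.28 for Sesn2, so which of them changed more depends on the pseudocount.

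To set the 2 strong risers beside the sestrin nearest to no change, the 250 bases upstream of their start sites are shown. Capitals mark any exact match, on either strand, to the p53 decamer motif. The decamer is the 10-letter consensus of each of the 2 parts of a p53 site. The sequences are RefSeq's on GRCm38.p6, 5′ to 3′ along the gene's strand. They are chr4:132510457-132510706 (minus) for Sesn2, chr3:137623422-137623671 (plus) for Ddit4l, and chr10:41810324-41810573 and chr10:41887189-41887438 (both plus) for the first and the internal start of Sesn1.
Sesn2: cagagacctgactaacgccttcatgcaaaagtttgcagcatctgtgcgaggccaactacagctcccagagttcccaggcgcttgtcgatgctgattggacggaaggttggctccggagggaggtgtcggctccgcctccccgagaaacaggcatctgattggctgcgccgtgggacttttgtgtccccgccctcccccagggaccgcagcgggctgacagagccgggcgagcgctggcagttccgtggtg
Ddit4l: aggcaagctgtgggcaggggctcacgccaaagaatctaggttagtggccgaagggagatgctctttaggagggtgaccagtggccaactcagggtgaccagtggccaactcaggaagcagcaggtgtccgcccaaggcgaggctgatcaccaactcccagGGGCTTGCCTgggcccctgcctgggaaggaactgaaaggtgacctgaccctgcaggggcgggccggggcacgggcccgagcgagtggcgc
Sesn1, first start: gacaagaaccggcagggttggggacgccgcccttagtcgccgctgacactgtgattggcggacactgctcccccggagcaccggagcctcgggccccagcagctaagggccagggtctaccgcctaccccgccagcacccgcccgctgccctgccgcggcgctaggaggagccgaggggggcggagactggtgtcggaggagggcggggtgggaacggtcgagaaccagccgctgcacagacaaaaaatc
Sesn1, internal start: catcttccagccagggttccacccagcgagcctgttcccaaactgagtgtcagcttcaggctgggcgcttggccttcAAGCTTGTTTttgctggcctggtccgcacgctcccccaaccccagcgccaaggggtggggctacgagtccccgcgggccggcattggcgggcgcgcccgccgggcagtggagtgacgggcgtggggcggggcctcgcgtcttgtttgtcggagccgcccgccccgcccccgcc
The decamer had 1 match 90 bases before the start of Ddit4l and 1 match 173 bases before the internal start of Sesn1. It had 0 matches in the windows of Sesn2 and of the first Sesn1 start, and 0 in those of Sesn3, Ddit4, Tsc1, Tsc2, Prkab1 and Tigar. Among 32851 such windows of RefSeq start sites, 7.13% held a match. Whole p53 sites, inexact matches and bases outside these windows were not looked at, and binding by p53 was not tested. The CCAAT box (letters CCAAT, either strand) had 2 matches before Sesn2, 4 before Sesn3, 2 before Ddit4, 3 before Tigar and 1 before each Sesn1 start, against 33.8% of all windows with any match. It had 0 matches before Ddit4l, Tsc1, Tsc2 and Prkab1. The ATF4 element TGATGNAAT and the E-box CACGTG, each sought on both strands, had 0 matches in these 10 windows, against 0.816% and 6.02% of all windows. Of the 9 genes and Ddit4l, 9 had an entry in the RefSeq promoter table, and Deptor had none.

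Neither TSC complex gene passed the test, and both had groups that overlapped. Tsc1 (chr2:28640993-28691172, plus strand) encodes hamartin, which stabilises the complex. It ranged from 15.2 to 16.3 TPM in control and from 15.2 to 15.9 TPM in cKO, with a log2 change of -0.02 (95% interval -0.13 to 0.09, limma adjusted p = 0.869). Tsc2 (chr17:24595816-24632676, minus strand) encodes tuberin, the part that inactivates Rheb. It held 43.8, 43.3, 47.8 and 50.0 TPM in control and 51.5, 47.1, 48.9 and 47.6 TPM in cKO. The groups overlapped, with a log2 change of 0.08 (95% interval -0.05 to 0.21, limma adjusted p = 0.457). Its row shares 699 bases with Pkd1 on the other strand (12.5 TPM on average), so if counting ignored strand part of these reads could not be told apart. The log2 ratio of Tsc1 to Tsc2 was -1.55 ± 0.11 in control and -1.65 ± 0.05 in cKO (SD, n = 4, exact permutation p = 0.143).

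Prkab1 (chr5:116013586-116024503, minus strand) encodes the beta 1 scaffold subunit of AMPK and has been described as a p53 target. Its mean was lower in cKO, unlike that of Sesn2. Control libraries 1 to 4 held 48.0, 39.1, 42.6 and 43.1 TPM, and cKO libraries held 39.8, 34.5, 34.6 and 38.4 TPM. The groups overlapped, with cKO library 1 above control library 2. The log2 change was -0.22 (95% interval -0.38 to -0.07) and did not pass (limma adjusted p = 0.0938; exact two-sided permutation p = 0.0571). The other beta subunit gene, Prkab2, held 34.8, 35.5, 38.0 and 43.0 TPM in control and 38.2, 43.9, 36.3 and 40.7 TPM in cKO, with a log2 change of 0.07 (limma adjusted p = 0.628). The log2 ratio of Prkab1 to Prkab2 was 0.19 ± 0.19 in control and -0.11 ± 0.17 in cKO (SD, n = 4, exact permutation p = 0.0571, 0.114 after adjustment over the 8 ratios and sums). The beta subunits summed to 81.0 ± 4.86 and 76.6 ± 3.82 TPM (exact permutation p = 0.229, n = 4), and the catalytic subunits Prkaa1 and Prkaa2 to 79.8 ± 3.91 and 76.1 ± 5.08 TPM (exact permutation p = 0.286, n = 4).

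Deptor (chr15:55112317-55259273, plus strand) encodes a protein that binds mTOR and inhibits it. At 1.04, 1.15, 1.00 and 1.35 TPM in control and 1.69, 1.27, 1.27 and 1.11 TPM in cKO it lay just above the filter, and the groups overlapped (log2 change 0.13, 95% interval -0.14 to 0.39, limma adjusted p = 0.564). At this level differences on the log2(TPM + 1) scale are understated.

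Tigar (chr6:127085116-127109552, minus strand) encodes an enzyme that lowers fructose-2,6-bisphosphate and so turns glucose away from glycolysis. Control libraries held 12.2, 10.5, 11.5 and 12.0 TPM, and cKO libraries held 11.5, 12.4, 12.3 and 12.4 TPM. The groups overlapped, and the log2 change was 0.07 (95% interval -0.07 to 0.21, limma adjusted p = 0.55). As a fold the interval spans 0.952 to 1.16.

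**Figure D3:**
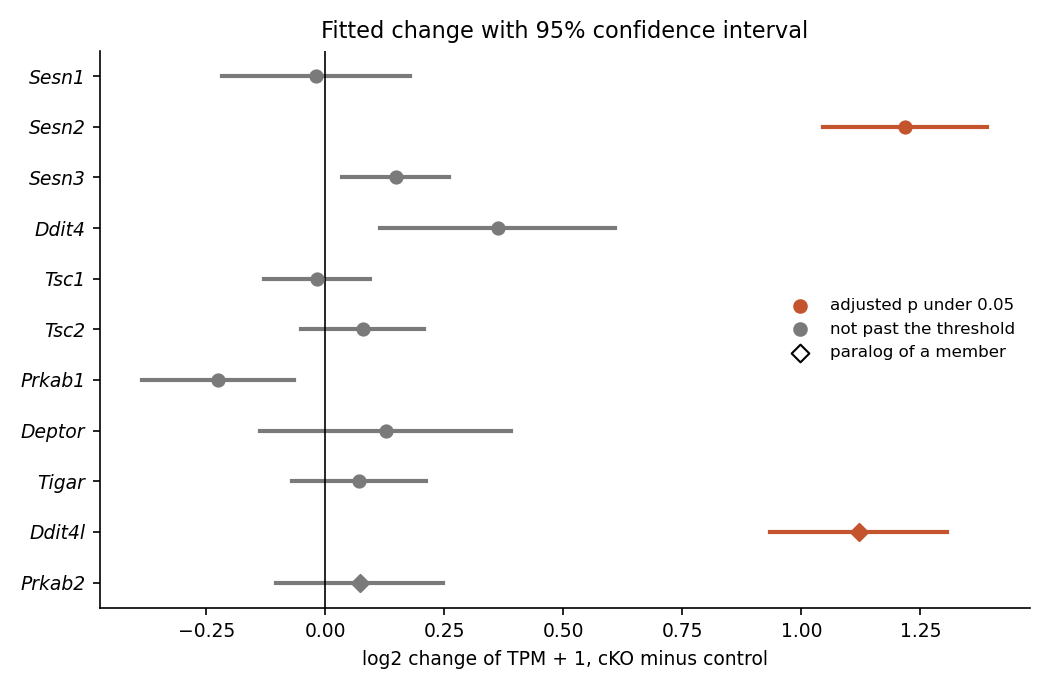
Log2 change of TPM + 1 in cKO minus control for the 9 genes (circles) and the paralogs Ddit4l and Prkab2 (diamonds), with 95% confidence intervals from limma as lines and 0 as the vertical line. Sesn2 at 1.22 and Ddit4l at 1.12 stand apart, and the other points lie between -0.22 and 0.36.

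The rest of the pathway was read through 11 lists with 96 tested genes beside the 9. Of these 96, 4 were called higher and 5 lower, which is 9.38% against 6.40% of all tested rows, and their median log2 change was -0.05. The 4 that rose were Ddit4l and 3 genes of the p53-linked metabolic list. The 5 that fell encode parts of AMPK, of the Rag GTPases and of the translation machinery downstream of mTORC1. The rises held their call under all 18 alternatives. Each fall lost its call under at least 9 of its alternatives, and the number of pathway genes called ranged from 4 to 9 when 1 library was left out.

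Within AMPK and its upstream kinases, 0 of 12 other genes were called higher and 1 lower. That gene was Prkag2, the gamma 2 subunit gene known for its role in the heart, which fell to 63.9 ± 5.01 TPM from 78.8 ± 4.97 TPM in control (SD, n = 4; log2 change -0.30, limma adjusted p = 0.0313). Its groups did not overlap, but the call was lost without cKO replicates 1 or 3 or control replicates 1, 3 or 4, where the adjusted p reached 0.086. Among 13 Rag and Ragulator genes, 0 were higher and 2 lower. Rragd, the RagD gene, fell from 71.1 ± 2.82 to 59.6 ± 4.95 TPM (log2 change -0.25, limma adjusted p = 0.0398), and Rragb, the RagB gene, fell from 4.02 ± 0.391 to 2.83 ± 0.323 TPM (log2 change -0.39, limma adjusted p = 0.041). Among 15 effectors of mTORC1, 0 were higher and 2 lower. Eif4b, a translation initiation factor gene, fell from 214 ± 6.22 to 187 ± 7.82 TPM (log2 change -0.19, limma adjusted p = 0.0374), and Larp1, which encodes a binder of ribosomal protein mRNAs, fell from 61.9 ± 2.96 to 52.7 ± 3.03 TPM (log2 change -0.23, limma adjusted p = 0.0401). Rragd, Eif4b and Larp1 were not called under any of quantile, median-ratio or mitochondria- and globin-free scaling, and Rragb under 1 of these. All 4 lost the call when almost any library was left out (the exception was cKO replicate 2 for Rragd, Rragb and Eif4b, and cKO replicate 4 for Larp1), with adjusted p up to 0.111.

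In 6 lists limma called 0 of the genes beside the 9. These were the TSC and Rheb list (0 of 3, 0 with an unadjusted p under 0.05), GATOR1 with KICSTOR and the amino acid sensors (0 of 9, 2 unadjusted), GATOR2 (0 of 5, 0 unadjusted), the mTOR complexes (0 of 10, 3 unadjusted), PI3K and Akt (0 of 15, 3 unadjusted) and the enzymes around fructose-2,6-bisphosphate (0 of 4, 0 unadjusted). Rheb itself stood at a log2 change of -0.10 (limma adjusted p = 0.397) and Rhebl1 at -0.11 (adjusted p = 0.707). In the GATOR1 list the smallest p belonged to Depdc5 (-0.20, adjusted p = 0.139) and Nprl3 (0.12, adjusted p = 0.203), and in GATOR2, which the sestrins bind, to Seh1l (-0.12, adjusted p = 0.272) and Wdr59 (-0.07, adjusted p = 0.565). Tti1 (-0.20, adjusted p = 0.103) and Mapkap1 (-0.18, adjusted p = 0.137) led the mTOR complexes. Irs1 (0.19, adjusted p = 0.067) and Irs2 (-0.27, adjusted p = 0.147), the adaptors of the insulin receptor, led PI3K and Akt. Pfkfb2 (0.14, adjusted p = 0.321) and Pfkfb1 (-0.20, adjusted p = 0.374) encode bifunctional enzymes that set the metabolite Tigar degrades.

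The lists of factors known to induce these genes differed in their counts. Of 19 tested p53 targets beside the 9, 14 were called higher and 0 lower, with a median log2 change of 0.71. The 5 genes that this list shares with the 9 (Sesn1, Sesn2, Ddit4, Prkab1 and Tigar) gave 1 call, Sesn2. This list was chosen with earlier results on p53 targets in these libraries known, so its direction is no independent evidence. The 4 with the smallest p were Eda2r, a death receptor gene (log2 change 2.38), Cdkn1a, the cell cycle inhibitor p21 (2.50), Trp53inp1 (1.46) and Ccng1, the cyclin G1 gene (1.27), with limma adjusted p between 3.9e-06 and 7.29e-06.

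Among 9 other tested genes of p53-linked metabolism, 3 rose and 0 fell. Cpt1c, of the carnitine palmitoyltransferase family, rose to 17.7 ± 1.88 TPM from 9.93 ± 1.18 TPM in control (SD, n = 4; log2 change 0.77, limma adjusted p = 0.00279). Acad11, an acyl-CoA dehydrogenase gene, rose from 12.8 ± 0.511 to 17.9 ± 0.874 TPM (log2 change 0.45, limma adjusted p = 0.00309). Aldh4a1, a mitochondrial enzyme of proline breakdown, rose from 25.2 ± 1.56 to 34.3 ± 1.93 TPM (log2 change 0.43, limma adjusted p = 0.00544). The groups did not overlap in any of these 3. Of this list 1 gene, Gls2, was below the filter.

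ATF4 is a further known inducer of Sesn2 and Ddit4. Of 17 tested ATF4-linked genes 0 were called higher and 1 lower, with a median log2 change of -0.10. The called gene was Slc7a5, a leucine transporter gene, which fell to 24.6 ± 1.42 TPM from 33.7 ± 2.61 TPM in control (SD, n = 4; log2 change -0.44, limma adjusted p = 0.00729). The call of Slc7a5 held under all 18 alternatives. Limma called 0 of 15 hypoxia-linked genes (4 with an unadjusted p under 0.05, median log2 change -0.14) and 0 of 7 glucocorticoid-linked genes (1 unadjusted, median -0.03). The FoxO list holds the genes of the 4 factors themselves and no targets, and 0 of these were called (1 unadjusted, median 0.04). The leading genes by p were Slc2a1 (-0.26, adjusted p = 0.119) and Egln1 (-0.26, adjusted p = 0.132) for hypoxia, and Fkbp5 (-0.23, adjusted p = 0.109) and Errfi1 (0.12, adjusted p = 0.328) for glucocorticoids. Among the FoxO factors they were Foxo3 (0.24, adjusted p = 0.107) and Foxo1 (0.13, adjusted p = 0.241).

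**Figure D4:**
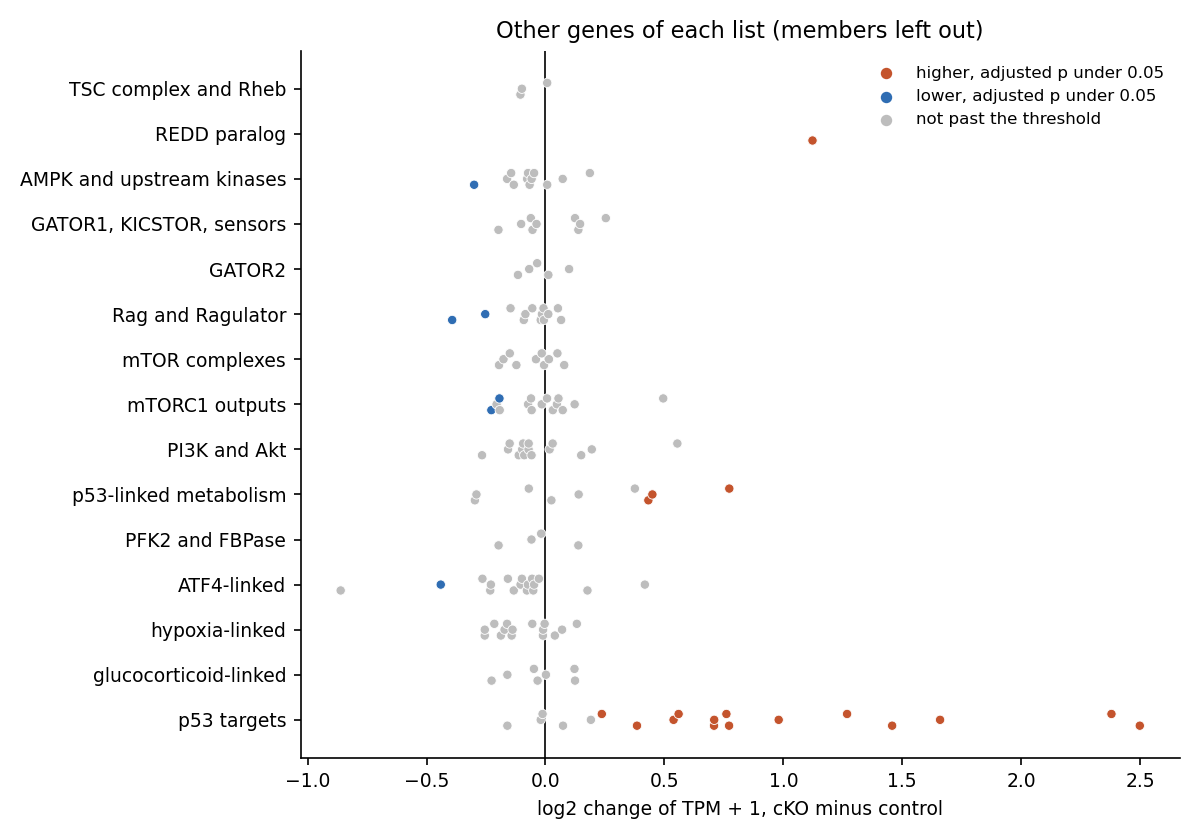
Log2 change of TPM + 1 in cKO minus control for each tested gene of 15 lists, with the 9 genes left out, 1 point per gene and colour for limma adjusted p under 0.05. The p53 targets reach from -0.16 to 2.50 with 14 called higher, while the pathway genes lie between -0.39 and 0.77, apart from the REDD paralog Ddit4l at 1.12.

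The rows most like Sesn2 over the 8 libraries, by Pearson correlation of log2(TPM + 1), were Ccng1 (r = 0.994), Cdkn1a (r = 0.990) and Mme, which encodes the peptidase neprilysin (r = 0.988, log2 change 0.43). These values describe 8 libraries that share the difference between groups, and 1.51% of tested rows had r above 0.9. The symbol Cdkn1a stands on 2 rows, and the row on the primary chromosome was used.

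Markers of other cells in the ventricle were set beside these results. The summed TPM of 8 mesenchymal markers lay between 575.1 and 746 in control and between 854 and 1039 in cKO, and that of 8 epicardial markers between 368 and 427 in control and 432 and 532 in cKO, with no marker of either list at 0. Of the 8 mesenchymal genes 4 were called higher, and of the 8 epicardial genes 4. The log2 change was positive in all 8 genes of each of these lists. For 10 endothelial markers the sums were 844 to 897 and 895 to 1009 TPM, and for 8 erythroid markers 29.3 to 91.0 and 22.4 to 43.5 TPM. For 9 macrophage markers, of which 7 were tested, the sums were 66.8 to 92.6 and 70.8 to 123 TPM. Each of these sums overlapped between groups, with 0 genes called. The log2 change was positive in 9 of 10 endothelial and 7 of 7 macrophage genes, and negative in 8 of 8 erythroid genes. Cardiomyocyte markers, in the cells where Cre acts, summed to between 52758 and 57646 TPM in control and between 51532 and 54716 TPM in cKO. Of these 14 markers 1 was called lower. Their log2 change was negative in 12 of 14, with a median of -0.05 beside -0.02 over all tested rows. The part of cell makeup in the values of Sesn2, Ddit4 and Ddit4l was not tested.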

How the data were processed

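The deposited table holds TPM values that the authors computed, named so in the table's title; the 8 columns summed to between 999999 and 1000000. Per the submitters' processing notes the tools were FastQC, Trim Galore 0.6.7, HISAT2 2.2.1, StringTie 2.2.1, featureCounts and DESeq2 on GRCm38; which of them made the TPM, the annotation and the use of strand are not given in the sources used here. TPM keeps no depth, so counting error is unknown and the precision given is that between libraries. Between 15336 and 15752 rows per library reached 1 TPM.

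Tests used limma 3.58.1 under R 4.3.3 on the log2 of TPM + 1, for rows that averaged 1 TPM or more over the 8 libraries (group as the only term, eBayes with trend, two-sided, Benjamini-Hochberg over 15541 rows, threshold 0.05). Changes on this scale understate those of low genes. Sums and ratios within a library were compared by an exact two-sided permutation test over 70 assignments, whose smallest p is 0.0286. The extraction and library texts of the labels disagree with the series text. The genes and lists were chosen with earlier results of these data known. Named were the 9 genes, Rps19bp1, the paralogs Ddit4l and Prkab2, the called genes of each pathway list (where none was called, the 2 with the smallest p), up to 4 called genes of the lists of inducing factors (otherwise 2), and the 3 rows likest to a called gene among the 9, predicted genes left out. Alternatives were pseudocounts of 0.1 and 5, no filter, a mean of at least 5 TPM, 3 other scalings, eBayes without trend, array weights, a replicate block and leaving out each library. Figures were drawn with matplotlib 3.10.9.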

Additional observations from a re-analysis of the deposited data

Results flagged for a closer look

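In 34 groups of 4 values looked at (9 genes and 8 ratios or sums, in each group), 2 had an extreme library whose gap to the nearest other, as a share of the group's range, was above Dixon's critical value at 95% for 4 samples, and chance flags about 1 in 20 such groups. In cKO, Tigar had a gap of 0.911 of the range on the scale of log2(TPM + 1). Library 1 held 11.5 TPM and the other 3 held between 12.3 and 12.4 TPM. In cKO, the summed TPM of Prkab1 and Prkab2 had a gap of 0.865 of the range, since library 3 held 70.9 TPM and the other 3 held between 78.0 and 79.1 TPM.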

How the results depend on the processing

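Sesn2 was called under all 18 alternatives and 7 of the other 8 genes under none; Deptor was not tested with a mean of at least 5 TPM. Ddit4 was called without control replicate 4, and its log2 change ranged from 0.29 to 0.45 when single libraries were left out, which gave 1 to 2 of the 9 genes called. The small changes of Sesn1 and Tsc1 turned positive after median-ratio scaling (0.00639 and 0.00807) and without mitochondrial and globin rows (0.014 and 0.016), and that of Sesn1 after quantile normalization (0.000470). Leaving out single libraries gave -0.085 to 0.060 for Sesn1. Other pathway genes called numbered 4 with no filter and 5 with rescaling without mitochondrial and globin rows, without a trend and with the replicate block, and 4 to 9 when single libraries were left out, beside 9. All rows called numbered 347 with no filter, 609 without a trend, 420 with the replicate block and 390 to 938 when single libraries were left out, beside 994. The cause of these shifts was not tested. Whether equal replicate numbers pair the libraries was not settled. Deviations from the group means correlated between -0.0891 and 0.0674 for equal numbers, and 4 of 8 libraries correlated best with their own number. The replicate block changed no call among the 9 genes. Depth is unknown, so no limit from counting could be given.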

Other observations

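Among the cKO libraries, replicate 4 held the most Rps19bp1 (19.2 TPM, against 11.8 to 15.2 TPM in the other 3) and the least Sesn2 (25.0 TPM) and Ddit4l (6.47 TPM). Among the other 3 the order differed, as replicate 1 held the most Rps19bp1 (15.2 TPM) and also the most Sesn2 (30.9 TPM) and Ddit4l (7.70 TPM). The comparison of libraries was chosen after these values were seen. Of 19 genes called higher in the pathway lists or the p53 target list, Sesn2 included, 16 had their lowest cKO value in replicate 4 and 3 in replicate 2. Of all 336 rows called higher, 55.1% had theirs in replicate 4, 23.2% in replicate 2 and the rest in replicates 1 and 3. With 4 libraries no relation to the level of Rps19bp1 was tested. Without cKO replicate 4 the log2 change of Sesn2 was 1.27 and that of Ddit4l 1.17.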
